A study of Mus musculus with 6 samples.

Results

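Ctla4, Cd28 and Icos, the 3 neighbouring genes for the costimulatory receptors of the CD28 family, were followed in regulatory T cells (Tregs) sorted from the spleen of NOD mice. The members were the probe sets annotated to 1 of these symbols alone, which gave 6 of the 45101 probe sets in the table: 1 for Ctla4, 2 for Cd28 and 3 for Icos. Each array was hybridised with RNA from 1 female mouse of the diabetes-prone NOD strain. All mice carried the BDC2.5 T cell receptor transgene, specific for a pancreatic islet antigen, and a Foxp3 reporter that makes Tregs fluoresce green (Foxp3GFP). The treated group (3 mice) was RAG1o/o and was given 37.5 µg of the anti-CD3 antibody KT3 into a vein once a day, 5 injections in a row, the first at an age of 17 days. The untreated group (3 mice) was RAG1+/o and received nothing. Cells were taken at 28 or 29 days of age, and the labels place the treated samples at 11 or 12 days after treatment. RAG1 is needed to rearrange antigen receptor genes, so the RAG1o/o mice make no B cells and no T cells with a receptor other than the transgene, whereas the RAG1+/o mice can make both. Genotype and treatment changed together and their parts in any difference cannot be told apart. The sort kept CD4+ GFP+ cells and removed those bearing B220, CD8a, CD11b or CD11c.

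CD28 delivers the second signal that a T cell needs beside its antigen receptor, and it does so on binding CD80 or CD86, the B7 ligands of antigen-presenting cells. CTLA-4 binds the same ligands more tightly, limits activation and can strip the ligands from the presenting cell. Tregs make it constitutively under the control of Foxp3. ICOS, which binds ICOS ligand, is induced by activation and marks effector Tregs, in which it helps maintain the cells and their interleukin-10. CD28 is needed for Tregs to form in the thymus and to persist outside it. In the RefSeq annotation (GRCm38.p6) the genes lie on mouse chromosome 1 in the order Cd28, Ctla4, Icos with 0 other protein-coding genes between them, in a region linked to diabetes susceptibility in NOD mice.

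No probe set of the 3 genes differed between treated and untreated Tregs beyond the spread between mice. Ctla4 transcript was 1.38-fold higher in treated samples on average (95% interval 0.75 to 2.51), but the spread of the untreated mice covered all treated values. The 2 probe sets of Cd28 gave ratios of 0.72 and 1.05, and the 3 of Icos 0.80, 0.96 and 1.05. The comparison was fitted with limma over 45037 probe sets with Benjamini-Hochberg adjustment. Of the 6 member probe sets 0 passed an adjusted p of 0.05, and 0 had an unadjusted p under 0.05, while over all probe sets 0 (0%) passed and 2037 (4.52%) had an unadjusted p under 0.05. Groups did not overlap in 0 of the 6 against 10.2% of all probe sets. Precision is limited by the number of arrays, and the width of each interval gives the differences these arrays leave possible. In such bulk samples fewer expressing cells and less RNA per cell cannot be told apart.

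The arrays themselves were not alike within groups. Their median intensity ran from 85.3 to 92.4. The mean log2 level of 13 measured B cell markers was 6.69 to 6.74 in treated samples. In the untreated ones it was 10.06 (replicate 1), 10.05 (replicate 2) and 7.35 (replicate 3). That of 19 myeloid and dendritic cell markers was 8.44 to 9.54 in treated samples and 9.13, 9.01 and 6.89 in the untreated ones. The mean of 10 T cell markers was 10.91, 11.01 and 11.62 in treated and 10.71, 10.04 and 11.37 in untreated samples. Markers of CD8 T cells stayed between 6.47 and 6.69 on all arrays. Those of NK cells were at 6.27 to 6.50 in treated and 7.25, 7.39 and 6.38 in untreated samples. Those of erythroid cells and platelets were at 7.31 to 7.98 in treated and 7.97, 8.23 and 6.45 in untreated samples. Foxp3, which defines the sorted cells, was at 9.95 or above on every array. The mean of 8 Treg markers was 9.85, 10.05 and 10.23 in treated and 10.59, 10.42 and 10.89 in untreated samples, with all treated values lower. Of the 8 genes, 3 had differences above 0 and 5 below. The median was −0.17, and the differences ran from −2.76 to +1.19, the highest being that of Foxp3. Gpr83, a receptor gene enriched in Tregs, differed by −2.76 (limma adjusted p = 0.186) and Ikzf4, encoding the Treg transcription factor Eos, by −2.44 (limma adjusted p = 0.129). Groups did not overlap for either gene, neither passed the test, and 1 of 3 Ikzf4 probe sets had the opposite sign. The part of these differences in the receptor values was not tested. Untreated replicate 3 thus stood apart from the other untreated arrays in B cell, myeloid, NK cell, and erythroid and platelet markers. It was the lowest untreated array in each of these and the highest in the T cell and Treg marker means. The difference of each member probe set is given with and without this array. The array file numbers in the labels also place both replicate 3 arrays apart from the rest. The labels do not call this a batch, and its part in the results was not tested.

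Ctla4 was read by probe set 1419334_at. Its log2 intensity was 12.40, 12.78 and 12.93 in treated mice and 11.83, 11.81 and 13.10 in untreated mice, in the order of the replicate numbers here and below. In the authors' linear units these are 5421, 7037 and 7813 against 3638, 3582 and 8793. The highest and the lowest of the 6 values were both from untreated mice, with untreated replicates 1 and 2 almost equal and replicate 3 above every treated value. The group means were 12.71 ± 0.27 and 12.25 ± 0.74 (SD, n = 3 each), a difference of +0.46 (95% interval −0.41 to 1.33, limma adjusted p = 0.961). The SD over the 6 arrays, 0.56, exceeded that of 78.7% of probe sets with a mean of at least 7.

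Without untreated replicate 3 all treated values of Ctla4 lay above the remaining untreated ones. The difference was then +0.89, a 1.85-fold higher level (interval 0.34 to 1.44, limma adjusted p = 0.728). The untreated arrays then left were those with B cell marker means of 10.06 and 10.05, against 7.35 in the one left out. With 3 against 2 arrays, however, 22.5% of all probe sets had groups that did not overlap, and in 11.9% of all probe sets the treated values were the higher ones. The difference was +0.24 without untreated replicate 2 and +0.25 without untreated replicate 1. Untreated replicates 1 and 2, where Ctla4 was lowest, were the arrays with the highest B cell marker means and the lowest T cell marker means. When every array was centred on its T cell marker mean, Ctla4 differed by −0.02 (limma adjusted p = 0.985). This centring subtracts 0.48, the difference in the T cell marker mean, from every probe set. The part of cell composition in the Ctla4 values was not tested.

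**Figure D1:**
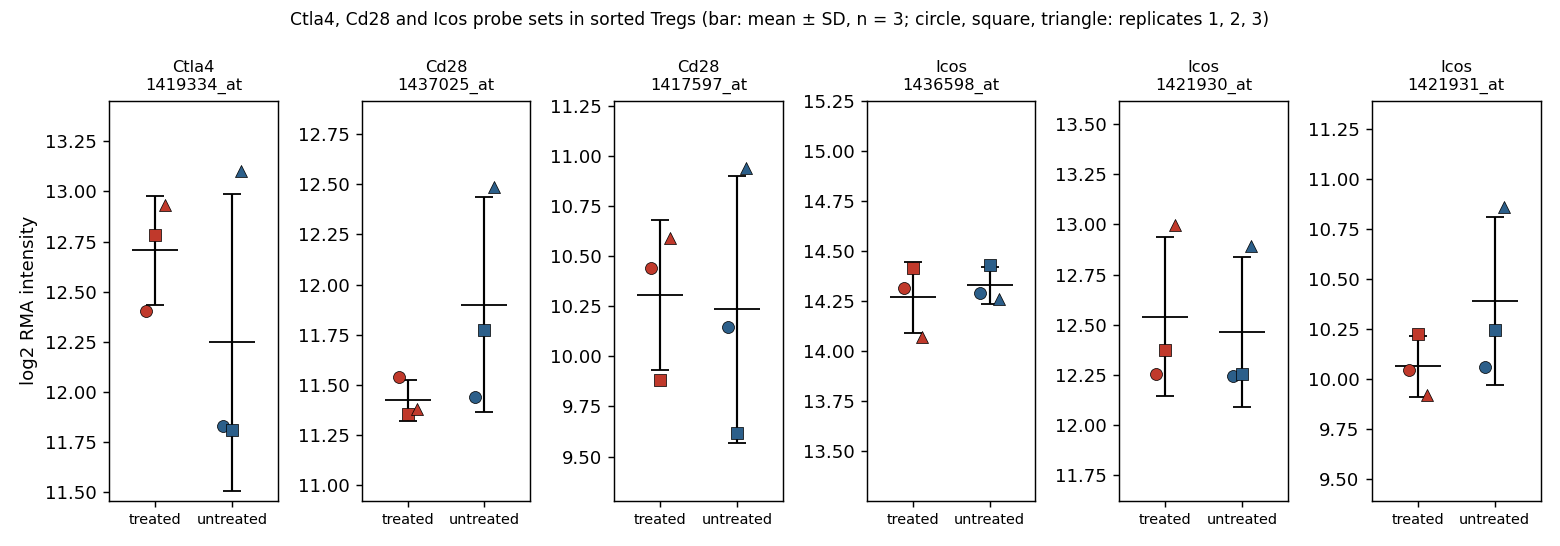
Log2 RMA intensity (y axis, 1 panel per probe set, each spanning the same range of log2 units) of Ctla4, Cd28 and Icos in treated and untreated Tregs. Points are single mice and bars give the mean ± SD (n = 3). Treated and untreated values overlap in all 6 panels, and untreated replicate 3 is the highest untreated point in all but the first Icos panel.

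Cd28 was read by probe sets 1437025_at and 1417597_at, which did not follow each other across the arrays. Probe set 1437025_at measured 11.54, 11.35 and 11.38 in treated and 11.44, 11.77 and 12.49 in untreated samples. Treated values were close together, and untreated replicate 3 stood well above the rest. The difference was −0.48 (interval −1.12 to 0.17, limma adjusted p = 0.961), and −0.18 (interval −0.68 to 0.32) without untreated replicate 3. It was −0.71 (interval −1.36 to −0.05, limma adjusted p = 0.9999) without untreated replicate 1 and −0.53 without treated replicate 1. The groups did not overlap in either case. Without untreated replicate 3, groups were apart in 22.5% of all probe sets, and this share was not counted for the other left-out arrays.

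Probe set 1417597_at measured 10.44, 9.88 and 10.59 in treated and 10.15, 9.62 and 10.94 in untreated samples. Within each group replicate 2 was lowest and replicate 3 highest, and the untreated range contained the treated one. The difference was +0.07 (interval −0.77 to 0.92, limma adjusted p = 0.985), or +0.42 without untreated replicate 3 and −0.24 without untreated replicate 2. The 2 probe sets lay on the same side of their own 6-array mean on 3 of 6 arrays, so a Cd28 value depends on the probe set read. Between control probe sets for the 3′ and 5′ ends of Actb the log2 difference ran from 0.92 in untreated replicate 3 to 3.62 in treated replicate 3. RNA went through 2 amplifications, and the part of 3′ bias in the disagreement between probe sets was not tested.

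Icos had the brightest member probe set, 1436598_at, and also the steadiest. It measured 14.32, 14.42 and 14.07 in treated and 14.29, 14.43 and 14.26 in untreated samples, a span of 0.36 over all mice. The array maxima were 14.70 to 14.85, so this probe set lay near the top of the measured scale, and whether it still responds in proportion there was not tested. The difference was −0.06 (interval −0.45 to 0.33, limma adjusted p = 0.975), and −0.09 without untreated replicate 3. As a ratio of treated to untreated level the interval runs from 0.73 to 1.26.

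Probe set 1421930_at measured 12.25, 12.37 and 13.00 in treated and 12.24, 12.25 and 12.89 in untreated samples. Replicate 3 was clearly highest in each group, and the groups overlapped. The difference was +0.08 (interval −0.57 to 0.72, limma adjusted p = 0.980), and +0.29 without untreated replicate 3. Probe set 1421931_at measured 10.04, 10.23 and 9.92 in treated and 10.06, 10.24 and 10.86 in untreated samples. Here untreated replicate 3 alone was high, while treated replicate 3 was the lowest value. The difference was −0.32 (interval −0.89 to 0.24, limma adjusted p = 0.961), and −0.09 without untreated replicate 3. It was −0.49 without untreated replicate 1 and −0.41 without treated replicate 2, and in both cases the groups did not overlap. The share of all probe sets with groups apart was not counted for these left-out arrays. For 1436598_at and 1421930_at only 1 of 6 arrays lay on the same side of both probe sets' means.

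**Figure D2:**
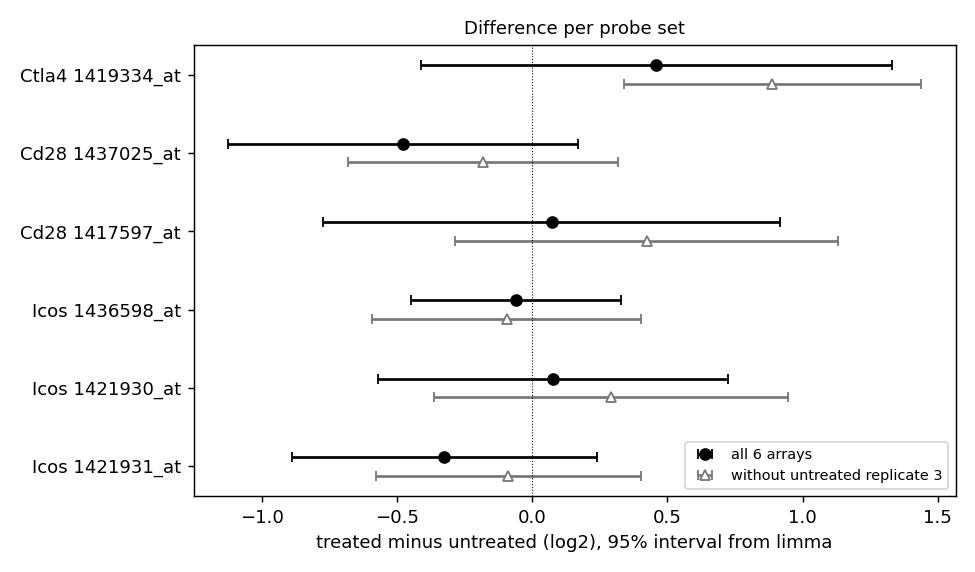
Treated minus untreated difference (x axis, log2) with its 95% interval from limma for each probe set, over all 6 arrays (filled circles) and without untreated replicate 3 (open triangles). All 6 full intervals span 0, and the Ctla4 interval without that array runs from 0.34 to 1.44.

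Whether the receptors shifted relative to each other was asked with the log2 difference between leading probe sets (those with the highest mean) on the same array. Ctla4 minus Cd28 was 0.86, 1.43 and 1.56 in treated and 0.39, 0.04 and 0.61 in untreated samples, with all treated values higher. The shift was +0.94, at an exact two-sided permutation p of 0.1, the smallest that 3 against 3 arrays allow (0.3 adjusted over 3 pairs). With the other Cd28 probe set the shift was +0.39 and the groups overlapped. Ctla4 minus Icos shifted by +0.52 (exact permutation p = 0.3). With Icos probe set 1421931_at this shift was +0.78 and the groups did not overlap (exact permutation p = 0.1, or 0.489 adjusted over 11 pairings of probe sets). Groups were apart in 10.2% of single probe sets, and the share over pairs of probe sets was not counted. Icos minus Cd28 shifted by +0.42 (exact permutation p = 0.4). Without untreated replicate 3 the shifts were +1.07 for Ctla4 minus Cd28 and +0.98 for Ctla4 minus Icos (exact permutation p = 0.1 for each, the smallest that 3 against 2 arrays allow), and +0.09 for Icos minus Cd28 (exact permutation p = 0.8). Ctla4 minus Icos shifted by +0.25 without untreated replicate 2, +0.33 without untreated replicate 1 and +0.31 without treated replicate 3. These are shifts between groups within arrays and say nothing about which transcript is more abundant.

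Foxp3, the factor that directs Ctla4 transcription in Tregs, was 11.43, 11.46 and 12.44 in treated and 10.75, 9.95 and 11.07 in untreated samples. All treated values were higher, at a difference of +1.19 that did not pass the test (limma adjusted p = 0.961). Ctla4 minus Foxp3 on the same array was 0.97, 1.32 and 0.49 in treated and 1.07, 1.86 and 2.04 in untreated samples, so that Ctla4 differed by −0.73 relative to Foxp3 (exact two-sided permutation p = 0.2). Against Foxp3 the Cd28 probe sets differed by −1.66 and −1.12 and the Icos probe sets by −1.25, −1.11 and −1.51. In each of these 5 the treated values were all below the untreated ones (exact permutation p = 0.1, the smallest possible, and 0.12 adjusted over 6 probe sets). Subtracting Foxp3 lowers the difference of every probe set by 1.19, and 64.3% of all probe sets then had all treated values below the untreated ones. Without untreated replicate 3 the differences relative to Foxp3 were −0.54 for Ctla4, with overlapping groups, −1.61 and −1.003 for Cd28, and −1.52, −1.14 and −1.51 for Icos. Foxp3 is common to all 6 comparisons, so they are not independent, and they were chosen after the values were seen.

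**Figure D3:**
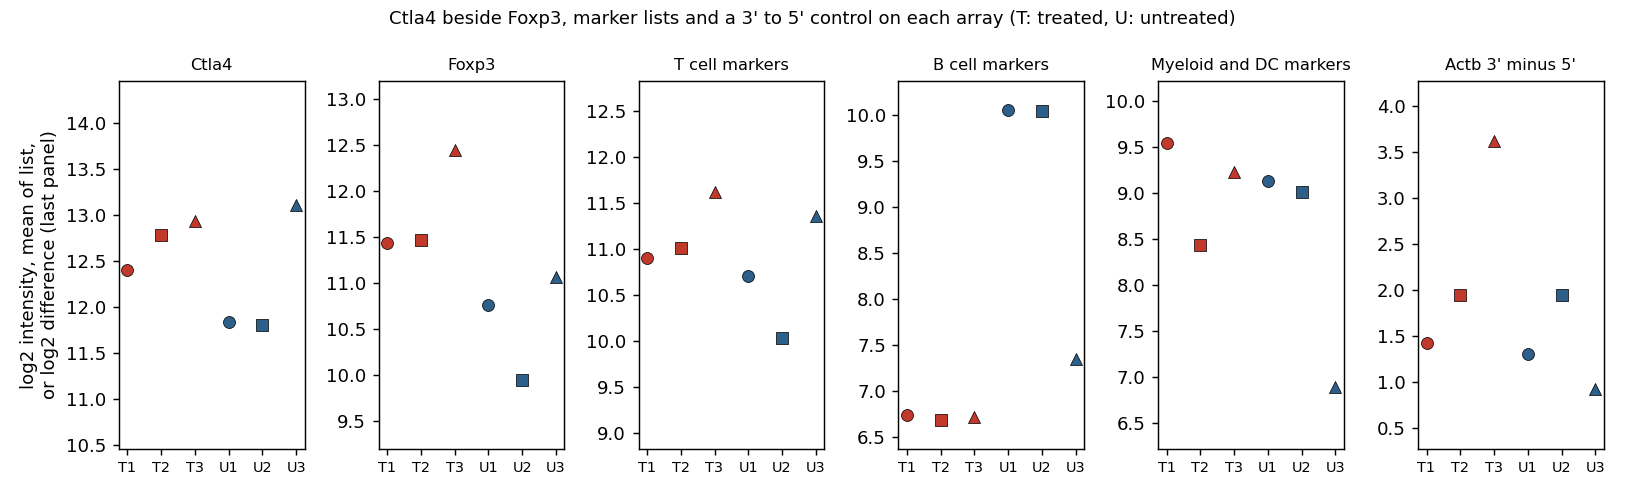
Ctla4 and Foxp3 log2 intensity, mean log2 intensity of the T cell, B cell, and myeloid and dendritic cell (DC) marker lists, and the log2 difference between 3′ and 5′ Actb control probe sets (y axes, all spanning the same number of log2 units) on treated (T1 to T3) and untreated (U1 to U3) arrays. Arrays U1 and U2, at 11.83 and 11.81 for Ctla4, have B cell marker means of 10.06 and 10.05.

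The ligands of the 3 receptors are made mainly by antigen-presenting cells and were dim here. Cd80 and Cd86, ligands of CD28 and CTLA-4, differed by +0.21 and −0.53, and Icosl, the ligand of ICOS, by +0.24. For Cd80, 2 of 4 probe sets had the opposite sign. Their group means lay between 6.40 and 7.38, and 0 of 3 passed the test. A second Cd86 probe set differed by −0.78 (interval −1.41 to −0.14). B cell and myeloid markers, which differ between these arrays as given above, come from cells that carry CD86, and their part in the Cd86 values was not tested.

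The other receptors of the family on the array went in opposite directions, though neither passed over all probe sets. Pdcd1, encoding the inhibitory receptor PD-1, measured 8.43, 8.22 and 9.86 in treated and 6.62, 6.99 and 7.91 in untreated samples, a 3.17-fold ratio (limma adjusted p = 0.961). Btla, encoding an inhibitory receptor that B cells also carry, differed by −0.84, and its groups overlapped. It was at 12.83, 12.92 and 11.80 in untreated replicates 1, 2 and 3, the arrays with B cell marker means of 10.06, 10.05 and 7.35. The part of B cells in the Btla values was not tested. Pdcd1 and Btla both had an unadjusted p under 0.05, against 4.99% of the 18193 genes taken at their leading probe set.

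Among 9 genes for the transport of CTLA-4 to and from the cell surface, Trat1 had the largest difference. It encodes the adaptor TRIM, which binds CTLA-4 and helps carry it from the Golgi to the surface. Trat1 measured 8.80, 9.34 and 8.75 in treated and 9.77, 10.40 and 11.16 in untreated samples. No treated value reached the lowest untreated one, which 5.24% of all genes share, and the difference was −1.48 (interval −2.33 to −0.63, limma adjusted p = 0.961). Its second probe set, at 9.07, 8.32 and 9.27 against 10.13, 10.07 and 10.04, differed by −1.19. Without untreated replicate 3 the first probe set differed by −1.12, with groups still apart. Over those 3 against 2 arrays, groups were apart in 22.5% of all probe sets, both directions counted. Trat1 is itself a T cell gene, and the mean of the T cell marker list was higher in treated samples by 0.48. The part of cell composition in the Trat1 values was not tested.

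Lrba, whose protein spares CTLA-4 from lysosomal breakdown, differed by −0.45, with 1 of 4 probe sets of the opposite sign. Another of its probe sets differed by −1.40 (interval −2.17 to −0.63), with all treated values lower. Arf1 and phospholipase D act together in the release of CTLA-4 to the surface, and the genes Arf1 and Pld1 differed by −0.26 and +0.35. The other Arf1 probe sets differed by −0.89 (interval −1.73 to −0.05) and, for a dim probe set, by +0.29. In 3 of the 9 genes (Trat1, Lrba and Arf1) all treated values lay below the untreated ones, against the 5.24% of all genes given above. Of the 9 genes 0 passed over all probe sets, 5 had differences above 0, as did 58.5% of all genes, and 4 below. The median of the 9 was +0.01 beside +0.05 over all genes.

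Signalling components downstream of the receptors showed no member past the test. Of 19 measured genes, 9 had differences above 0 and 10 below, with a median of −0.12. CD28 and ICOS share a tail motif that recruits phosphatidylinositol 3-kinase. The genes of its regulatory subunit, Pik3r1, and of a catalytic subunit, Pik3ca, differed by −0.67 (interval −1.36 to 0.02) and −0.42 (interval −0.96 to 0.12). Pik3r1 measured 10.79, 9.97 and 9.79 in treated and 11.05, 10.93 and 10.56 in untreated samples, so treated replicate 1 reached into the untreated range. Akt1, the kinase activated by this pathway, differed by +0.37, and Grb2, an adaptor that binds the CD28 tail, by −0.23. Probe sets of the opposite sign numbered 1 of 4 for Pik3r1, 2 of 6 for Pik3ca, 2 of 4 for Akt1 and 1 of 2 for Grb2.

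**Figure D4:**
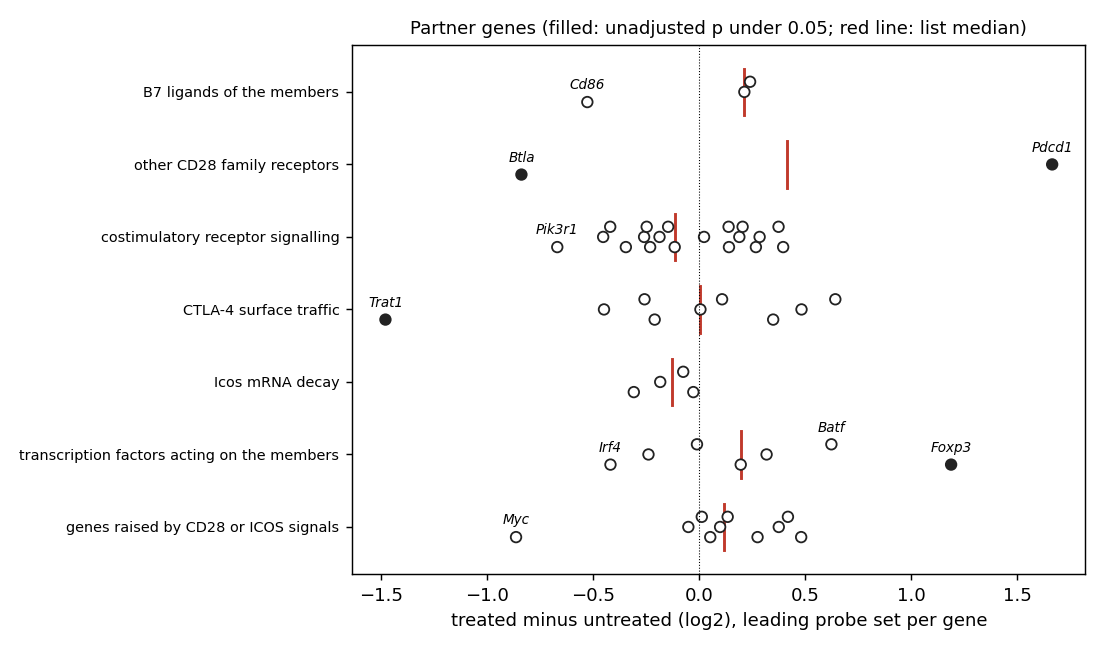
Treated minus untreated difference (x axis, log2, leading probe set per gene) of the partner genes, grouped by role on the y axis. Filled points have an unadjusted p under 0.05 (Pdcd1, Btla, Trat1 and Foxp3), open points do not, and red lines are list medians. No gene passed the adjusted threshold.

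The messenger RNA of Icos is held down by the RNA-binding proteins Roquin (Rc3h1), its paralogue Rc3h2, the endonuclease Regnase-1 (Zc3h12a) and the Roquin cofactor Nufip2. These genes differed by −0.08, −0.18, −0.03 and −0.31, and 0 of 4 passed. For Rc3h2, 3 of 7 probe sets had the opposite sign. Of 7 transcription factor genes that act on the members, 0 passed, 4 lay above 0 and 3 below, with a median of +0.20. Beside Foxp3, Batf differed by +0.62, Irf4 by −0.42 and Runx1 by +0.32, with 2 of 6 Runx1 probe sets of the opposite sign. The other Runx1 probe sets ran from −1.18 (interval −2.11 to −0.25) to +0.55 (interval 0.005 to 1.09). Groups were apart for both of these, as in 10.2% of all probe sets, and the first was dim, at group means of 4.42 and 5.60.

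Genes that CD28 or ICOS signals raise gave no call either, with 0 of 10 past the test, 8 above 0 and 2 below and a median of +0.12. Il10, which encodes a suppressive cytokine, measured 7.04, 7.74 and 7.58 in treated and 7.05, 7.18 and 7.02 in untreated samples, a difference of +0.38 (interval −0.13 to 0.88). Slc2a1, the glucose transporter gene, differed by +0.28 with all treated values higher, and Tnfrsf4, encoding the costimulatory receptor OX40, by +0.48. The other Slc2a1 probe sets differed by +0.09 and +0.20, with overlapping groups. Groups were apart, with treated values higher, in 5.61% of all genes. Myc, a driver of growth, measured 6.34, 6.43 and 7.55 in treated and 6.72, 8.35 and 7.83 in untreated samples (difference −0.86, interval −2.01 to 0.28).

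Il2ra and Cd3e belong to the Treg and T cell marker lists, whose other members did not all stay level. Il2ra, the interleukin-2 receptor alpha chain gene, differed by −0.05 and Cd3e, part of the T cell receptor complex, by +0.31, neither past the test. All treated values of Cd3e were higher, which 5.61% of all genes share. All 10 measured T cell markers had differences above 0, against 58.5% of all genes, with a median of +0.44. On the Treg list the differences ran from −2.76 to +1.19.

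On the chromosome, the nearest measured genes before Cd28 were Nbeal1, Cyp20a1, Abi2 and Raph1, at −0.66, −0.19, −0.26 and +0.64. Raph1, encoding lamellipodin, a regulator of actin at the leading edge of cells, measured 10.72, 10.95 and 11.02 in treated and 10.02, 10.12 and 10.62 in untreated samples. All treated values were higher, without passing over all probe sets (interval 0.15 to 1.13, limma adjusted p = 0.961). After Icos came Pard3b, Pard3bos1, Nrp2 and Ino80d, at −0.25, +0.00, +0.06 and −0.76. Of these 8 neighbours 0 passed.

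Likeness to each receptor's leading probe set was measured as the root mean square difference between log2 profiles over the 6 arrays, each centred on its own mean. The profiles nearest to Ctla4 were those of Galnt6 (0.14), BC018473 (0.14), Glipr1 (0.14), Traf1 (0.15) and Unc45a (0.16), out of 9924 candidate probe sets. Traf1, an adaptor of tumour necrosis factor receptors, measured 8.69, 8.90 and 8.92 in treated and 8.12, 7.93 and 8.96 in untreated samples, the same high value in untreated replicate 3 and low values in the other untreated mice. Nearest to Cd28 were Pak2 (0.09), Ccndbp1 (0.10), Slc30a6 (0.10), Rora (0.11) and Ppp2r5c (0.11). Pak2, a kinase gene, and Rora, a nuclear receptor gene, had all treated values below all untreated ones. That holds for 5.24% of all genes at their leading probe set. The 2 were picked for likeness to a Cd28 probe set that was itself lower on average in treated samples (−0.48, with overlapping groups). Their direction is therefore no separate result. Nearest to Icos were Gmeb1 (0.02), Iah1 (0.03), Sf1 (0.04), Zbtb24 (0.05) and Cmah (0.05), whose profiles were as flat as that of Icos. These genes were picked from many candidates over 6 arrays that share their differences in cell markers, so the likeness is a description of these samples only.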

How the data were processed

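RNA of sorted splenic Tregs from 6 mice, 3 per group, went through 2 amplifications with the MessageAmp aRNA kit and hybridised to Affymetrix M430v2 arrays, 1 mouse per array, per the labels. Per the series' design text, RMA in GenePattern was run by the authors, who deposited intensity values on a linear scale (5.47 to 29584.9). Which RMA version is not given in the sources. RMA equalises arrays, so a change common to most transcripts cannot be seen. No detection calls were used.

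Here log2 was taken with no further normalization. The 64 control probe sets were left out, and limma 3.58.1 in R 4.3.3 (lmFit, eBayes) compared treated with untreated arrays over 45037 probe sets, each on its own, with Benjamini-Hochberg adjustment and a threshold of 0.05. The fit was tested on simulated data. Symbols came from the platform annotation, updated by gene identifier for 34741 of 34945 probe sets with 1 symbol. Partner genes were read at the probe set with the highest mean, for 18193 genes. With 1 mouse per array, p-values reflect variation among mice together with differences between arrays in cell markers and 3′ bias. These cannot be told apart here.

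The members and gene lists were chosen with earlier results of these data known. All member probe sets were named, lists of up to 5 genes in full, longer ones by the 4 smallest p. Also named were Foxp3, Il2ra and Cd3e, the 4 nearest measured genes on each side, and per member the 5 nearest profiles with a mean of at least 7 and an SD between 0.5 and 2 times the member's. The second probe sets of Cd86, Trat1 and Lrba, the other Runx1, Arf1 and Slc2a1 probe sets, and Gpr83 and Ikzf4, were named after their values were seen. Alternatives were a replicate block, age as covariate, dim probe sets (mean under 6), quantile normalization, median and T cell centring, trended robust eBayes, array weights, 1 probe set or the mean per gene, and each array left out. Plots used Python 3.11.15 and matplotlib 3.10.9.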

Additional observations from a re-analysis of the deposited data

How the results depend on the processing

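No member probe set passed the threshold under any alternative tested with limma, where the smallest adjusted p was 0.728. With each array left out in turn, the difference ran from 0.24 to 0.89 for Ctla4, from −0.71 to −0.18 for Cd28 probe set 1437025_at and from −0.24 to 0.42 for 1417597_at. For Icos it ran from −0.13 to 0.038 (1436598_at), −0.15 to 0.29 (1421930_at) and −0.49 to −0.09 (1421931_at). Centring on T cell markers, which moves the median of all genes from +0.05 to −0.42, turned the sign of Ctla4 (−0.017), Cd28 1417597_at (−0.40) and Icos 1421930_at (−0.40). Centring on Foxp3, chosen after seeing the data, moves the median of all genes to −1.14 and turned Ctla4 to −0.73, Cd28 1417597_at to −1.12 and Icos 1421930_at to −1.11. Icos minus Cd28 turned to −0.13 and −0.40 with Cd28 1417597_at read against Icos 1436598_at and 1421931_at, also chosen after seeing the data.

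Over all probe sets limma called 0 higher and 0 lower, with 687 and 1350 at an unadjusted p under 0.05. The counts were 2 higher and 57 lower without untreated replicate 3 (range over left-out arrays 0 to 2 and 0 to 57), 1 and 4 with array weights, and 4 and 84 with T cell centring. The cause was not tested. Of the pathway genes 0 passed under these alternatives. Same-numbered arrays deviated together with correlations of 0.45, 0.08 and 0.09, and treated replicate 2 was closest to untreated replicate 3 (0.17), so the numbers were not taken as pairs. The replicate block gave 0 calls, and Ctla4 differed by +0.46 with an adjusted p of 0.812.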
